A study of Homo sapiens with 4 samples.

Results

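The Hippo pathway, its effectors YAP and TAZ, and a set of genes that YAP, TAZ and their TEAD partners are known to switch on were examined in OE33 cells after ARID1A knockdown. The set held 35 genes chosen by name, 22 pathway components and 13 targets, of the 18132 genes with a probe set of their own on the array. All 35 were measured, with 107 probe sets between them. OE33 cells are a long-used human line grown from an oesophageal adenocarcinoma. The knockdown group had received an ON-TARGETplus SMARTpool of siRNAs against ARID1A, and the mock group an ON-TARGETplus Non-targeting Pool, so both groups went through transfection. In both groups Lipofectamine and siRNA at 50 nM were given 24 hours after plating, in medium with 15% serum, and cells were harvested 48 hours after transfection. Each group was measured on 2 Affymetrix Human PrimeView arrays, described by the series as biological replicates. The study is limited to 1 cell line, 1 siRNA pool per group and 1 time point. All levels below are deposited values, taken as log2 expression from the naming of RMA and their range, and all changes are knockdown minus mock on that scale.

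In the Hippo pathway a cascade of kinases phosphorylates the coactivators YAP and TAZ, which are then held in the cytoplasm or degraded. When the cascade is quiet, YAP and TAZ enter the nucleus and bind TEAD proteins, which recognise DNA and drive genes of growth, matrix and adhesion. Cell contact, cell shape and attachment feed into the cascade through proteins at junctions and the cell cortex. ARID1A is a subunit of the SWI/SNF chromatin remodelling complex and has been reported, in other cells, to hold YAP and TAZ in check. The comparison therefore asked whether pathway components or TEAD targets differed when ARID1A was lowered.

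The short sequence that TEAD proteins recognise is shown first for the targets with more than 1 copy of it near their start, because CCN2 and ANKRD1 are among the usual readouts of YAP and TAZ. The letters searched were GGAATG, which reads CATTCC on the other strand, in RefSeq promoter windows of build GRCh38.p14. Each window runs from 250 bases before to 50 bases after a gene's start. The windows below read 5′ to 3′ along the gene, and capitals mark each match. They lie at chr6:131951323-131951622 for CCN2, chr10:90921038-90921337 for ANKRD1 and chr1:205321696-205321995 for NUAK2, all on the minus strand.
CCN2: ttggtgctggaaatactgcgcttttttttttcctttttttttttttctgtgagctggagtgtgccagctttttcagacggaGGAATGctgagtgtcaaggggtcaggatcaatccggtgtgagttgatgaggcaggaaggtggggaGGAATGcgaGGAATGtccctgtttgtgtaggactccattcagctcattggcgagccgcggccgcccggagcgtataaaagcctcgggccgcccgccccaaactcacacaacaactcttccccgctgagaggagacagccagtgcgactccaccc
ANKRD1: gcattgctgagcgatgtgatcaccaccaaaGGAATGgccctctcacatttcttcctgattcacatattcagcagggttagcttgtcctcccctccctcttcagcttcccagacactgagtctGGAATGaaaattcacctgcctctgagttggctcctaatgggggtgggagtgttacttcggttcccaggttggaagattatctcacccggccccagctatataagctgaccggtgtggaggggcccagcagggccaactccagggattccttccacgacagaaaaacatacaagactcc
NUAK2: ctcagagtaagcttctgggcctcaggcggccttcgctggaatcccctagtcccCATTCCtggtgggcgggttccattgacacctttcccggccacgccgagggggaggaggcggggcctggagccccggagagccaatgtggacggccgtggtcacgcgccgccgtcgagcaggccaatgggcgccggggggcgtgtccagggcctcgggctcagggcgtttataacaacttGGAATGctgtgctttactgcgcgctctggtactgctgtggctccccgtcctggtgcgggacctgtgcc

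In CCN2 the 3 matches began 169, 104 and 95 bases before the start, and no 2 of them overlap. In ANKRD1 the 2 matches began 220 and 128 bases before it, and in NUAK2 197 and 18 bases before it. A window was at hand for 8 of the 13 targets, and 4 of these 8 held at least 1 match, PTPN14 being the other. F3, NT5E, FJX1 and FSTL1 held none in this window. Of the 22 components 19 had a window and 5 held a match in at least 1 of their windows, namely YAP1, VGLL1, LATS2, AMOTL2 and AJUBA. Of all 35116 windows 14.0% held the letters, and of the 14425 genes on the array with a window 15.5% did. A match is a description of these letters and not a measured binding site.

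The transfection lowered its target. ARID1A was at 7.53 and 7.53 on the knockdown arrays, against 9.28 and 9.33 on the mock arrays. At this main probe set it fell 3.43-fold (log2 change -1.78, SE 0.072, limma adjusted p = 0.0218). Its 5 other probe sets had changes of -1.61, -1.39, -1.37, -0.36 and 0.11. Those at -1.61, -1.39 and 0.11 had means under the 40th percentile of all probe sets. Epithelial markers (EPCAM, CDH1 and keratins, 6 measured) lay between 12.1 and 14.6 in knockdown and between 12.0 and 14.6 in mock cells. The 10 markers of fibroblasts, endothelium and leukocytes lay between 3.19 and 6.11 in knockdown and between 3.03 and 6.15 in mock cells, and none of the 16 markers passed the test. With a limma p below 0.05 before adjustment, 4 of those 10 were lower in knockdown cells and 0 higher, against 7.25% and 9.76% of all genes, and 9 of the 10 had a negative change. The 4 were DCN at -0.44, CDH5 at -0.21, PECAM1 at -0.20 and CD14 at -0.20, and 5 of the 10 had means under the 40th percentile of all probe sets. The part of these markers in the results below was not tested. The 3′ minus 5′ difference of the beta-actin control probe sets, a measure of RNA integrity, was 1.21 and 1.10 in knockdown arrays, against 1.04 and 0.995 in mock arrays. It moved with the group, and its part in the results that follow was not tested. The same difference for GAPDH was 0.201 and 0.215 in knockdown arrays, against 0.199 and 0.211 in mock arrays, which overlap.

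None of the 35 members passed the test (limma adjusted p under 0.05), where 0.403% of all genes did. Taking limma's unadjusted p below 0.05, 12 of 35 (34.3%) differed, against 17% of all genes. Of these 7 were higher in knockdown cells and 5 lower, where 9.76% of all genes were higher and 7.25% lower at that p. The 7 were VGLL1, VGLL4, TEAD2, STK3, AMOTL2, NT5E and DLC1, and the 5 were WWTR1, STK4, FJX1, ANKRD1 and CRIM1. With any 1 array left out, fewer of the higher members, and also fewer of all genes, reached an unadjusted limma p below 0.05. The change then ran from -0.79 to -0.64 for WWTR1 and from 0.49 to 0.78 for NT5E. On 23 of the 35 (65.7%) the arrays of the groups did not overlap, against 49.4% of all genes. The median absolute change was 0.14 over the members and 0.099 over all genes. No test was made on the list as a whole, since its members were chosen with earlier results of these data known.

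**Figure D1:**
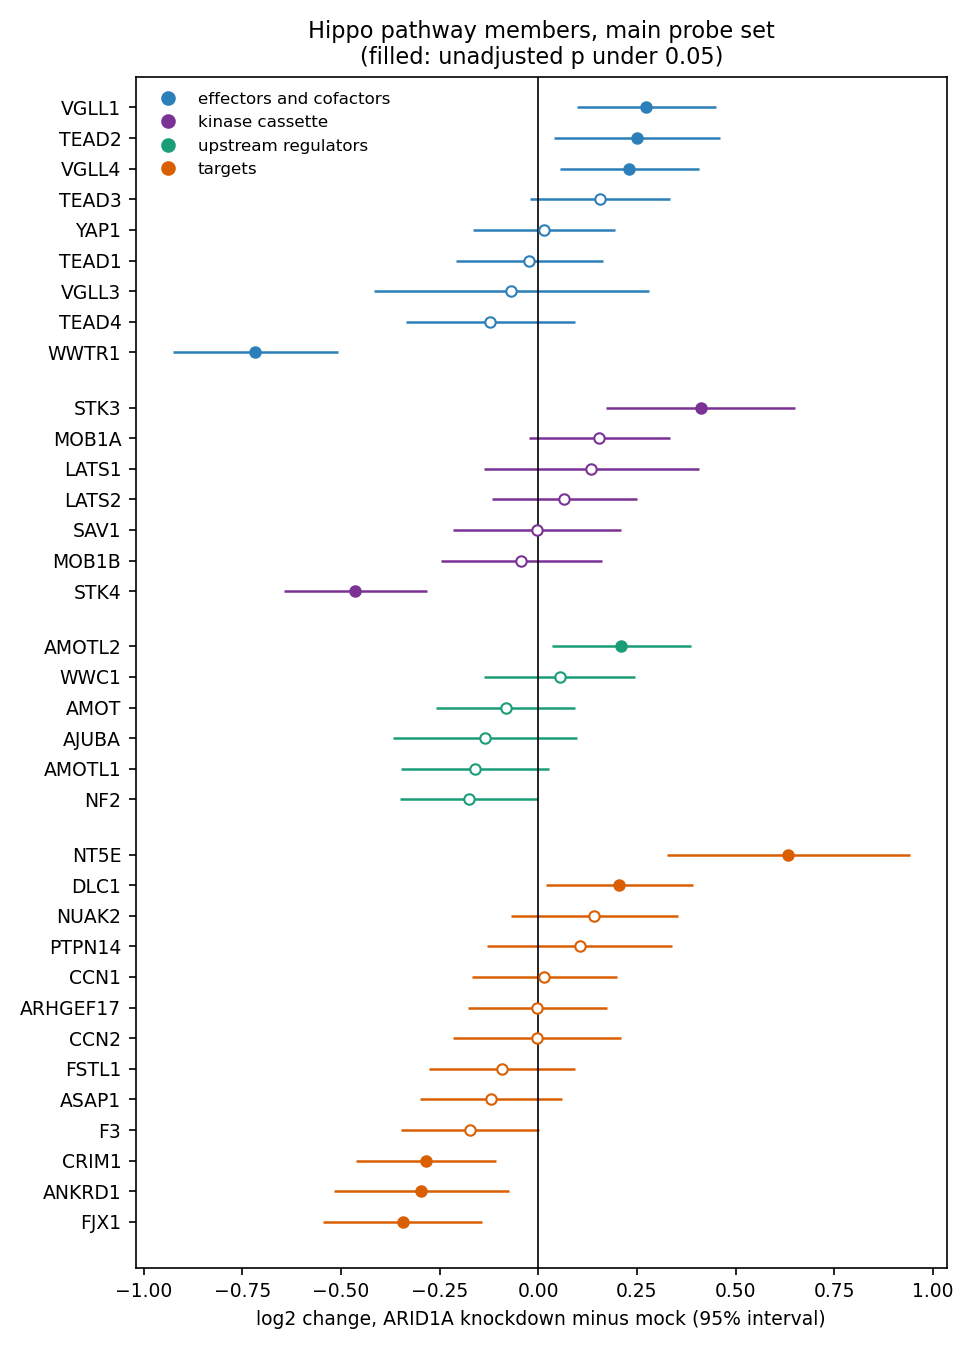
Log2 change, ARID1A knockdown minus mock (x axis), of the main probe set of each of the 35 members (y axis), grouped by role, with the 95% interval of the limma fit over 2 arrays a group. Filled points have an unadjusted p under 0.05. WWTR1 at -0.72 and STK4 at -0.46 lie farthest to the left, and NT5E at 0.63 and STK3 at 0.41 farthest to the right.

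Among the effectors WWTR1 had the lowest change of all 35 members, while YAP1 was close to 0. WWTR1, which encodes TAZ, was at 8.47 and 8.62 in knockdown cells, against 9.29 and 9.24 in mock cells. Both knockdown arrays lay well below both mock arrays. The log2 change was -0.72 (SE 0.084, 95% interval -0.93 to -0.51), a level 1.64-fold lower, and the adjusted p was 0.0525, just outside the threshold. Of its 2 other probe sets the dimmer had a change of -0.48 (adjusted p = 0.0723) and the brighter one of -0.16 (0.385), so that all 3 of its probe sets were lower and to unequal degrees. In bulk RNA, fewer cells with a transcript and less of it per cell cannot be told apart. WWTR1 passed the test in 5 of 12 other settings of the analysis, with adjusted p-values from 0.000508 to 0.0373 in those 5 and up to 0.521 in the rest.

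YAP1, which encodes YAP, was at 10.87 and 10.93 in knockdown cells, against 10.90 and 10.87 in mock cells. The groups overlapped, and the change was 0.02 with a 95% interval of -0.16 to 0.20. YAP1 had 8 probe sets, the most of any member, and all 8 changes were positive. The 3 brightest had changes of 0.02, 0.04 and 0.04, while the other 5 ran from 0.16 to 0.27, 3 of them at an unadjusted p under 0.05 and none past the adjusted test. The main probe set of YAP1 ends in _x_at, a class whose probes can also match other sequences.

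The DNA-binding TEAD genes gave no common direction. TEAD2 was at 8.24 and 8.18 in knockdown cells, against 8.03 and 7.88 in mock cells, with no overlap. Its change was 0.25 (SE 0.085, adjusted p = 0.246). The other 3 probe sets of TEAD2 had changes of -0.21, -0.10 and -0.02, opposite in sign, so the direction of TEAD2 was not shared between its probe sets. TEAD3 had a change of 0.16, TEAD4 of -0.12 and TEAD1 of -0.02, with adjusted p-values of 0.360, 0.546 and 0.924.

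Of the 3 vestigial-like cofactors, which bind TEAD proteins at the surface that YAP and TAZ use, VGLL1 and VGLL4 were higher. VGLL1, which is known from epithelial and placental cells, was at 11.15 and 11.13 in knockdown cells, against 10.88 and 10.86 in mock cells. The difference between groups was far larger than that between arrays of a group, and the change was 0.27 (SE 0.071, adjusted p = 0.171). VGLL4, which represses TEAD activity, was at 8.37 and 8.33 in knockdown cells, against 8.12 and 8.12 in mock cells. Its groups did not overlap either, with a change of 0.23 (SE 0.071, adjusted p = 0.218), and its 2 other probe sets had changes of 0.14 and 0.13. VGLL3, of the same family, had a mean under the 40th percentile of all probe sets (5.20) and a change of -0.07 (adjusted p = 0.864).

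**Figure D2:**
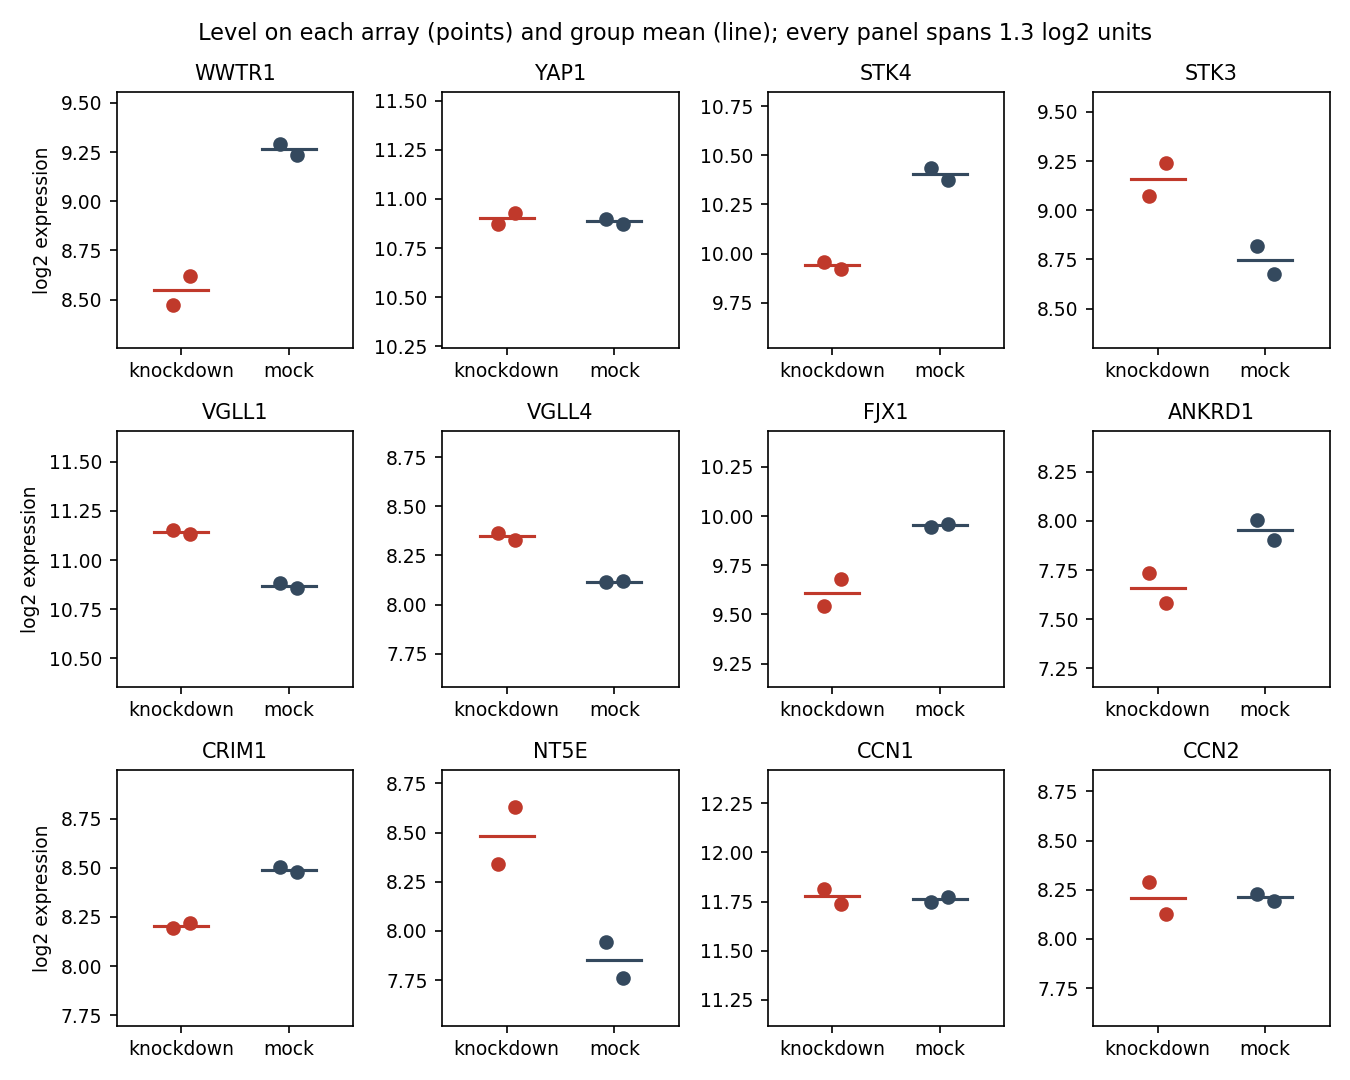
Deposited log2 expression (y axis, 1.3 log2 units in every panel) of 12 members on each array, with knockdown on the left and mock on the right. Points are arrays and lines are group means (n = 2 each). The groups are apart for WWTR1, STK4, STK3, VGLL1, VGLL4, FJX1, ANKRD1, CRIM1 and NT5E, and overlap for YAP1, CCN1 and CCN2.

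The core kinase cassette held its largest differences in the paired kinases at its head, and these ran in opposite directions. STK4, which encodes the kinase MST1, was at 9.96 and 9.92 in knockdown cells, against 10.43 and 10.37 in mock cells. Both knockdown arrays were lower, and the change was -0.46 (SE 0.073, adjusted p = 0.0793), 1.38-fold lower. A second bright probe set of STK4, which ends in _a_at, had a change of -0.44 (adjusted p = 0.0889), while its 4 dimmer ones ran from -0.10 to 0.12. STK3, which encodes the paralogous kinase MST2, was at 9.07 and 9.24 in knockdown cells, against 8.82 and 8.67 in mock cells. Both knockdown arrays were higher, and the change was 0.41 (SE 0.096, adjusted p = 0.145), 1.33-fold higher. The main probe sets of both kinases can match other sequences, but the _a_at probe sets of STK3 next in brightness had changes of 0.33 and 0.33. A further _a_at probe set of STK3 had a change of 0.07 (adjusted p = 0.860), and its dimmest probe set one of -0.28 (0.409). With the probe sets of each gene averaged, the changes shrank to 0.17 for STK3 and -0.14 for STK4 (limma adjusted p = 0.403 and 0.323).

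The rest of the cassette differed less. MOB1A, an activator of the LATS kinases, was at 11.16 and 11.21 in knockdown cells, against 11.05 and 11.02 in mock cells. The groups did not overlap, with a change of 0.15 (SE 0.072, adjusted p = 0.368), but its 4 other probe sets had changes from -0.21 to -0.02, so no direction can be given for MOB1A. Its paralogue MOB1B had a change of -0.04. The kinases LATS1 and LATS2, which phosphorylate YAP and TAZ, had changes of 0.14 (95% interval -0.14 to 0.41) and 0.07 (-0.12 to 0.25). The other probe sets of LATS1, both dim, had changes of -0.31 and 0.19, and those of LATS2 -0.06 and -0.15. No direction was thus shared between the probe sets of either kinase. SAV1, the scaffold of the upstream kinases, had a change of 0.00 with an interval of -0.21 to 0.21.

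Of the upstream and junctional regulators 4 of 6 had a negative change, as did 51.4% of all genes, and 1 of 6 (16.7%) had a limma p below 0.05 before adjustment, near the 17% of all genes. AMOTL2, an angiomotin-like protein that sequesters YAP and is itself a known YAP target, was that member. It was at 8.88 and 8.89 in knockdown cells, against 8.69 and 8.66 in mock cells. The knockdown arrays were both higher, with a change of 0.21 (SE 0.071, adjusted p = 0.243), and the 2 other probe sets of AMOTL2 had changes of 0.13 and 0.03. Its relative AMOTL1 was at 8.45 and 8.39 in knockdown cells, against 8.62 and 8.54 in mock cells. Here the knockdown arrays were both lower, with a change of -0.16 (SE 0.075, adjusted p = 0.371), and its other probe sets ran from -0.25 to 0.05.

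NF2 encodes merlin, which brings LATS kinases to the membrane. It was at 9.15 and 9.15 in knockdown cells, against 9.31 and 9.34 in mock cells. The groups did not overlap, and the change was -0.18 (SE 0.071, unadjusted p = 0.0502 and adjusted p = 0.309 in limma). Among its other probe sets above the 40th percentile 1 had no change to 2 decimals and the other 2 were at 0.13 and 0.21, so the lower level rests on the main probe set. AJUBA, a LIM protein that inhibits LATS, had a change of -0.13, AMOT of -0.08 and WWC1, which encodes the LATS activator KIBRA, of 0.05, with adjusted p-values from 0.538 to 0.783.

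The matricellular targets CCN1 and CCN2 had changes close to 0. CCN2, a secreted matricellular protein with 3 copies of the TEAD letters in the window printed above, was at 8.29 and 8.13 in knockdown cells, against 8.23 and 8.19 in mock cells. The mock arrays lay between the knockdown arrays. The change was 0.00 (SE 0.086, 95% interval -0.22 to 0.21), which leaves room for a level between 86.0% and 115.7% of mock. CCN1, a related matricellular protein, was at 11.81 and 11.74 in knockdown cells, against 11.75 and 11.77 in mock cells. Its groups overlapped too, with a change of 0.02 and an interval of -0.17 to 0.20. The other probe sets of both genes had changes from -0.05 to 0.04.

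ANKRD1, CRIM1 and FJX1 were lower. ANKRD1, a nuclear ankyrin repeat protein with 2 copies of the TEAD letters, was at 7.74 and 7.58 in knockdown cells, against 8.01 and 7.90 in mock cells. The groups did not overlap, and the change was -0.30 (SE 0.090, adjusted p = 0.214). FJX1, the human relative of the fly kinase four-jointed, was at 9.54 and 9.68 in knockdown cells, against 9.95 and 9.96 in mock cells. Its change of -0.34 (SE 0.081, adjusted p = 0.149) was the lowest among the targets. CRIM1, a membrane protein with cysteine-rich repeats, was at 8.19 and 8.22 in knockdown cells, against 8.50 and 8.48 in mock cells. The arrays of a group were close to each other, and the change was -0.28 (SE 0.071, adjusted p = 0.162). Of the other probe sets of CRIM1 a dim one had a change of -0.25 and the other one of 0.02, whereas ANKRD1 and FJX1 had a single probe set each.

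NT5E and DLC1 were higher. NT5E encodes CD73, the surface enzyme that makes adenosine from AMP. It was at 8.34 and 8.63 in knockdown cells, against 7.94 and 7.76 in mock cells. The knockdown arrays differed from each other by more than for most members but both lay above mock, with a change of 0.63 (SE 0.124, 95% interval 0.33 to 0.94, adjusted p = 0.114), 1.55-fold higher. Its 2 other probe sets had changes of 0.29 and 0.13. DLC1 was at 10.06 and 10.06 in knockdown cells, against 9.90 and 9.81 in mock cells. Both knockdown arrays were higher, with a change of 0.21 (SE 0.075, adjusted p = 0.268). Of the other 4 probe sets of DLC1 the bright ones had changes of 0.40 (adjusted p = 0.111) and 0.21, and the dim ones 0.03 and 0.00.

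F3, which encodes the clotting initiator tissue factor, was close to the unadjusted threshold at its main probe set and lower at all 3. Its changes were -0.17 (adjusted p = 0.314), -0.23 (0.218) and -0.40 (0.136), from the brightest to the dimmest. The 2 dimmer probe sets had an unadjusted limma p under 0.05. F3 was thus left out of the count of lower members through its main probe set alone. ASAP1, a GTPase-activating protein for ARF, was lower at all 4 of its probe sets, with changes from -0.18 to -0.11. The other targets ran from -0.09 for the secreted glycoprotein FSTL1 to 0.14 for the kinase NUAK2, which has 2 copies of the TEAD letters. Between them lay ARHGEF17 at 0.00 and the phosphatase PTPN14 at 0.11. PTPN14 and FSTL1 had means under the 40th percentile, as did AMOT and VGLL3.

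**Figure D3:**
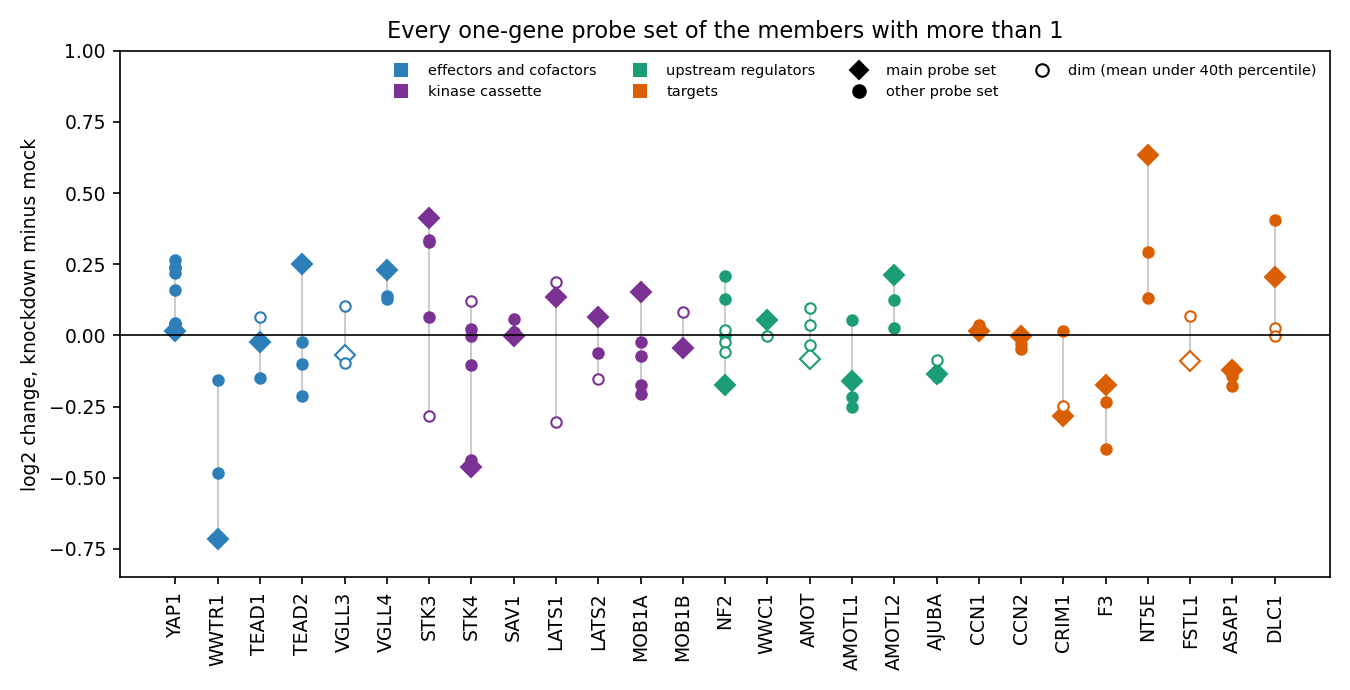
Log2 change, knockdown minus mock (y axis), of every one-gene probe set of the 27 members with more than 1 (x axis). Diamonds are main probe sets, circles the others, and open symbols have a mean under the 40th percentile of all probe sets. The 3 probe sets of WWTR1 lie below 0 and the 8 of YAP1 above it, while those of TEAD2, MOB1A and NF2 fall on both sides.

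Components and targets were then set side by side. The 22 components split into 11 higher and 11 lower, with a median change of 0.01, and the 13 targets into 5 higher and 8 lower, with a median of 0.00. The median of all genes was 0.00. By the unadjusted limma p, 7 of the components (31.8%) differed, 5 higher and 2 lower, and 5 of the targets (38.5%), 2 higher and 3 lower, against 17% of all genes (9.76% higher and 7.25% lower). The targets therefore held changes of both signs around a median near that of all genes, and no test was made between the lists. Relative to the mock mean, the targets' median was 0.00 on knockdown array 1 and -0.06 on knockdown array 2, and that of the components 0.00 and 0.04. The split between the lists is not clean, since the components LATS2 and AMOTL2 are also known targets. Counted with the targets, they made 15 targets, 7 higher and 8 lower, with a median of 0.00. The 20 components left were 9 higher and 11 lower, with a median of -0.01. Of the 27 members with other probe sets, 10 had the same sign at all of them. Among these 27, 9 had an unadjusted limma p under 0.05 at the main probe set, and 4 of the 9 had the same sign throughout. The same share was not counted over all genes.

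**Figure D4:**
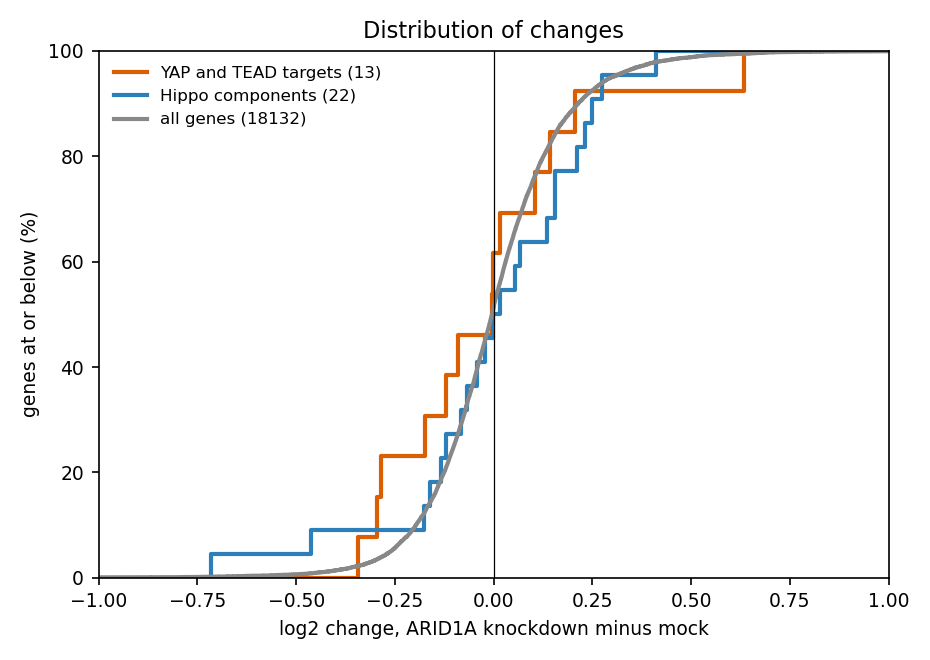
Cumulative share of genes (y axis, percent) at or below a given log2 change, knockdown minus mock (x axis), for the 13 targets, the 22 components and all 18132 genes, with the 25 genes beyond a change of 1 drawn at the edges. All 3 curves cross 0 near their middle.

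Genes of the pathway outside the set were counted from 2 further lists. Of 29 other Hippo regulators measured none passed the test, while 4 had higher and 1 a lower level with an unadjusted limma p below 0.05, with a median change of 0.02. These 5 are 17.2% of the list, a share like the 17% of all genes, so the count is no result about the list, and the values that follow describe single genes. TAOK1, a kinase that activates MST1 and MST2, had the smallest p among them, at 7.71 and 7.95 in knockdown cells, against 7.11 and 6.94 in mock cells. Its arrays did not overlap, with a change of 0.80 (SE 0.113, adjusted p = 0.0671), and its second probe set had a change of 0.43. Its relative TAOK3 had a change of 0.32 (adjusted p = 0.176) and BTRC, the ubiquitin ligase subunit that marks phosphorylated YAP and TAZ for degradation, one of 0.41 (0.173). SIKE1, part of the phosphatase complex that switches off MST kinases, had a change of -0.38 (adjusted p = 0.142).

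Of 17 other genes from published YAP and TAZ target signatures 1 passed the test, AXL, which was already known to pass in these data. AXL, a receptor tyrosine kinase, was at 8.68 and 8.67 in knockdown cells, against 9.95 and 9.82 in mock cells. It fell 2.32-fold (log2 change -1.21, SE 0.080, adjusted p = 0.0219), and its second probe set had a change of -0.48 (adjusted p = 0.103). With AXL, 3 of the 17 had an unadjusted limma p below 0.05, 2 of them higher and 1 lower, and the median was 0.06. That share of 17.6% is also near the 17% of all genes. EDN1, which encodes endothelin, had a change of 0.42 (adjusted p = 0.126), the membrane repair protein MYOF one of 0.28 (0.169) and the stress gene GADD45B one of 0.15 (0.415). 

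The counts depended on how the spread was modelled. With a prior that follows intensity, 9 of the 35 members passed the test, where 8.63% of all genes did, namely WWTR1, STK4, F3, VGLL1, NT5E, FJX1, STK3, CRIM1 and DLC1. With 2 arrays a group, each p-value draws on the spread between these arrays and no others. Part of that spread is the probe set's own (2 degrees of freedom in the main fit). The rest comes from all probe sets through the prior (3.62 degrees of freedom). A member that misses the threshold is not shown to be level.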

How the data were processed

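The data were 4 PrimeView arrays of total RNA, 2 of ARID1A knockdown and 2 of mock OE33 cells, grouped by their titles. Values deposited by the authors, 1 per probe set and array, were taken as log2 expression, a scale inferred from the naming of RMA and from their range and not checked against scanner output, and every fold rests on it. The tools named per the submitters' processing notes were Partek and RMA, without versions or roles. RMA sets arrays to a common distribution, so a change in total mRNA cannot be seen. The medians of the deposited values still ran from 5.89 to 5.93 between arrays. Apart from this, changes of dim probe sets are understated. Scanner values and scan batches were not used here.

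Of 49372 probe sets the 79 controls were left out and 49293 tested. Of these 44988 were paired with 1 gene by the platform annotation, 1832 with several and 2473 with none. The main probe set of a gene was the brightest on average across the 4 arrays. Symbols were checked by Entrez identifier against RefSeq (GRCh38.p14), and promoter sequences are RefSeq's, with a window for 27 of the 35 members. The groups were compared with limma 3.58.1 in R 4.3.3 (lmFit, eBayes, two-sided), with Benjamini-Hochberg adjustment over 49293 probe sets, a threshold of 0.05, and residual and prior degrees of freedom of 2 and 3.62. The fit was tested on simulated data. Arrays carry no read depth, so precision rests on their number.

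The members and lists were chosen with earlier results of these data known. All members are named, and values of every array are given for YAP1, WWTR1, CCN1, CCN2, members with an unadjusted p under 0.05 and the 3 largest changes of each role. Of other pathway genes AXL and up to 4 a list with the smallest p are named. F3, ASAP1 and the probe-set contrasts were described after their values were seen. Alternatives were quantile normalization, median centring, leaving out dim probe sets (mean at or under the 40th percentile) or those ending in _s_at or _x_at, averaging a gene's probe sets, an intensity trend in eBayes, replicate blocks and leaving out each array.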

Additional observations from a re-analysis of the deposited data

How the results depend on the processing

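The count of members past the test was 0 of 35. It became 1 under quantile normalization, with arrays centred on their medians and with a gene's probe sets averaged, and 9 with an intensity trend. With dim probe sets left out it was 3 of the 31 members that remained. WWTR1 was among the members past the test in each of these settings. Over all 18132 genes the count of 73 became 138 under quantile normalization, 286 with centring, 356 with averaged probe sets and 1565 with the trend. On fewer genes it was 636 of 12267 without dim probe sets and 12 of 16701 without probe sets ending in _s_at or _x_at. It was 0 without any single array, where limma has 1 residual degree of freedom fewer, and the unadjusted count of 3085 then ran from 1722 to 2523. No label says that a replicate number marks a shared culture, and deviations of same-numbered arrays correlated at -0.20. With a replicate block 0 genes passed (2154 at an unadjusted p under 0.05 in limma) and ARID1A had an adjusted p of 0.217 at an unmoved change of -1.78. With the crossed block, chosen after seeing the data, 0 passed (3635 unadjusted) and ARID1A had one of 0.187 at -1.78. Without each array in turn the change of ARID1A ran from -1.80 to -1.75, with adjusted p-values from 0.244 to 0.521.

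Members lower at an unadjusted limma p under 0.05 numbered 8 under quantile normalization and 9 with the trend, against 5. Those higher numbered 7 and 8 in these settings, against 7, and fewer were higher with any 1 array left out. Over all genes the count at that p was taken in both directions together, so it cannot be set against the lower members alone. It was 3330 under quantile normalization and 4032 with the trend, against 3085. The lower members also numbered 7 with the crossed block and 7 of 31 without dim probe sets. All genes at that p then numbered 3635, and 3063 of 12267, in either direction. The targets' median ran from -0.063 to 0.0034 with an array left out, lowest without knockdown replicate 1. Of the 12 members at an unadjusted p under 0.05, 11 kept their sign in all 12 settings. The exception was TEAD2, at -0.022 with averaged probe sets. Most of these settings could not turn a sign, since the trend and the blocks leave a change as it is. Leaving out an array cannot reverse a member whose groups do not overlap, which held for all 12. Reversals occurred for 13 other members, none with an adjusted p under 0.68. With averaged probe sets the changes were 0.023 for SAV1, -0.049 for LATS2, -0.065 for MOB1A, 0.020 for MOB1B, 0.014 for NF2 and 0.0044 for AMOT. Without shared probe sets FSTL1 had 0.068, under quantile normalization CCN1 had -0.00045 and with centring ARHGEF17 had 8.5e-05. With an array left out the change ran from -0.012 to 0.043 for YAP1, from -0.067 to 0.022 for TEAD1, from -0.25 to 0.12 for VGLL3, from -0.076 to 0.071 for SAV1, from -0.11 to 0.029 for MOB1B, from -0.021 to 0.053 for CCN1, from -0.085 to 0.078 for CCN2 and from -0.017 to 0.012 for ARHGEF17. The causes were not tested.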
